A study of Mus musculus with 57 samples.

Results

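The genes described here build the extracellular matrix of the early kidney tubule or bind it: collagen chains, laminin chains, integrins, and the proteins that link them, Nid1, Nid2, Hspg2, Agrn, Sparc, Fn1, Npnt, Frem1, Frem2 and Fras1. They were taken by gene symbol from the deposited table of expressed genes, in which 56 of 12087 rows matched, for 55 different symbols. Agrn had 2 rows. Values come from 57 sorted single cells, labelled as renal vesicle, of Crym-EGFP mice, Tg(Crym-EGFP)82Gsat, at postnatal day 4. In this strain a bacterial artificial chromosome transgene drives EGFP from the Crym gene, so the sort follows the activity of that transgene. All cells carry the transgene, have a mixed background and come from 1 pool of 2 kidneys. Cells of 1 pool are not replicates, so differences are given with their spread over cells and with no test.

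A basement membrane is a sheet in which a laminin network and a collagen IV network are joined by nidogens and by heparan sulfate proteoglycans such as perlecan (Hspg2) and agrin (Agrn). Cells hold on to it through integrins, each an alpha chain paired with a beta chain. In the kidney the laminin and collagen IV chains change as the glomerulus matures: Lama1 and Lamb1 give way to Lama5 and Lamb2, and Col4a1 and Col4a2 are joined by Col4a3, Col4a4 and Col4a5, whose loss causes Alport syndrome. Fibrillar collagens such as Col1a1 and Col3a1 belong to the interstitium between tubules.

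Promoter sequence is shown for 4 members with a higher mean level in a class compared below. These are Col4a4 and Itga3 for the podocyte-like cells, Npnt for the proximal cells and Col3a1 for the stromal cells. Itga3 and Npnt were detected in only part of the cells of their class. Each is the 250 bases before the first annotated start in RefSeq on GRCm38.p6, read 5′ to 3′ on the strand of the gene. Capitals mark a GC box, GGGCGG, the letters that Sp1-family factors bind, or a TATA box, TATAAA, each searched on both strands. Col4a4 lies at chr1:82586850-82587099 on the minus strand, Itga3 at chr11:95076715-95076964 on the minus strand, Npnt at chr3:132950292-132950541 on the minus strand and Col3a1 at chr1:45311288-45311537 on the plus strand.
Col4a4: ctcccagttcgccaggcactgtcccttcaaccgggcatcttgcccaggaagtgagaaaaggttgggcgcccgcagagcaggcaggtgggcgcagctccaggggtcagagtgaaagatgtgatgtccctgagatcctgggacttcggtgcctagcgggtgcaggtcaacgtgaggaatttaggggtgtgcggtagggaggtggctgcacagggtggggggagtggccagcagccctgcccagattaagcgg
Itga3: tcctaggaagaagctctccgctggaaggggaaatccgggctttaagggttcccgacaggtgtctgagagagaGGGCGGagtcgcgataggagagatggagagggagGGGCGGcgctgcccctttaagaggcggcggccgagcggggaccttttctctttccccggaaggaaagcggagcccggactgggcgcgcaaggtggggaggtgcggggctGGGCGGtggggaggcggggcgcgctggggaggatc
Npnt: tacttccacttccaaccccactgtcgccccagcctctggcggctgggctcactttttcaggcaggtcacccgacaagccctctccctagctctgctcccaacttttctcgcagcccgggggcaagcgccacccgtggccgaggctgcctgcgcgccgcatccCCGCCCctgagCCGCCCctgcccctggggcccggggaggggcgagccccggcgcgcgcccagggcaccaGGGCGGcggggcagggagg
Col3a1: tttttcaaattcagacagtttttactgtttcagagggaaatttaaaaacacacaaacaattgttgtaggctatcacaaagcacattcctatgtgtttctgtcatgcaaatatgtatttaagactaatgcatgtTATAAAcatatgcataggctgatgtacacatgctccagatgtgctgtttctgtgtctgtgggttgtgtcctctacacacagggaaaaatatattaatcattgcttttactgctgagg
The windows of Itga3 and Npnt each hold 3 GC boxes and no TATA box. The window of Col3a1 holds 1 TATA box and no GC box, and its GC content is 35.2%, against 62.8% for Col4a4, which holds neither motif. Of the 55 member symbols 36 had a window in the RefSeq table, and 20 of these, 55.6%, held a GC box, against 32.9% of all 27025 genes with a window. CCAAT stood in 27.8% of the member windows and 34.5% of all windows, and TATAAA in 8.33% and 13.0%. These matches describe the letters of the windows and are not evidence of binding.

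The collagen IV genes are neighbours on the chromosome. In the deposited coordinates, whose build the submitters' processing notes give as mm9, the end of Col4a4 on chromosome 1 is followed after 71 bases by the start of Col4a3. The corresponding gap is 2 bases between Col4a1 and Col4a2 on chromosome 8 and 1342 bases between Col4a6 and Col4a5 on chromosome X. The promoter windows are on another build, so the coordinates of both kinds cannot be set against each other.

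The cells were put into classes by genes that are no members. Levels are in RPKM, a read density per kilobase scaled to each library's mapped reads, and RPKM 1 or more in a cell counts as detection. The stromal class is the 2 cells with Pdgfra of 100 or more, cells 13 and 53, which had 237 and 365, while the highest of all other cells had 1.31. The podocyte-like class is 4 cells, cells 2, 10, 26 and 34, with Wt1 of 20 or more and at least 3 podocyte markers at 5 or more. The proximal class is 29 cells with Wt1 of 20 or more and none of Pou3f3, Sox9 or Mecom at 20 or more, and the distal class is 12 cells with Wt1 under 20 and one of those genes at 20 or more. Another 2 cells met both conditions, 3 met neither, and 5 with C1qb of 1000 or more are called macrophage-like. All cells other than the stromal and macrophage-like ones are called nephron cells, 50 in all.

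The classes held up unequally against further markers. Pax8, a transcription factor of the nephron lineage, was between 10.7 and 1160 in the 50 nephron cells and at 1.99 or less in the 7 others, which goes against the label of renal vesicle for those 7. Cells 2, 10 and 34 each had 7 podocyte markers, and cell 26 had 3, the least the rule allows, while 9 nephron cells with Wt1 had 2. Both stromal cells had Meis1 (131 and 369) and Dcn (349 and 126). Pdgfrb, also listed as a stroma marker, was at 0.115 in cell 13 and 370 in cell 53. Meis1 was not particular to the stromal cells, with 178 in proximal cell 7. Both stromal cells also had Acta2, an actin of smooth muscle (169 and 860), with Cspg4 and Rgs5 at 0. In 5 nephron cells Wt1 lay between 10 and 40, and in 5 the highest distal gene did. Reads per cell were estimated at 0.468 to 2.24 M, and 2809 to 6502 genes were detected per cell. The median of genes detected was 3925.5 in podocyte-like, 4391 in proximal, 4329.5 in distal and 3537 in stromal cells. Within a cell a gene that is off and a transcript that was missed cannot be told apart.

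**Figure D1:**
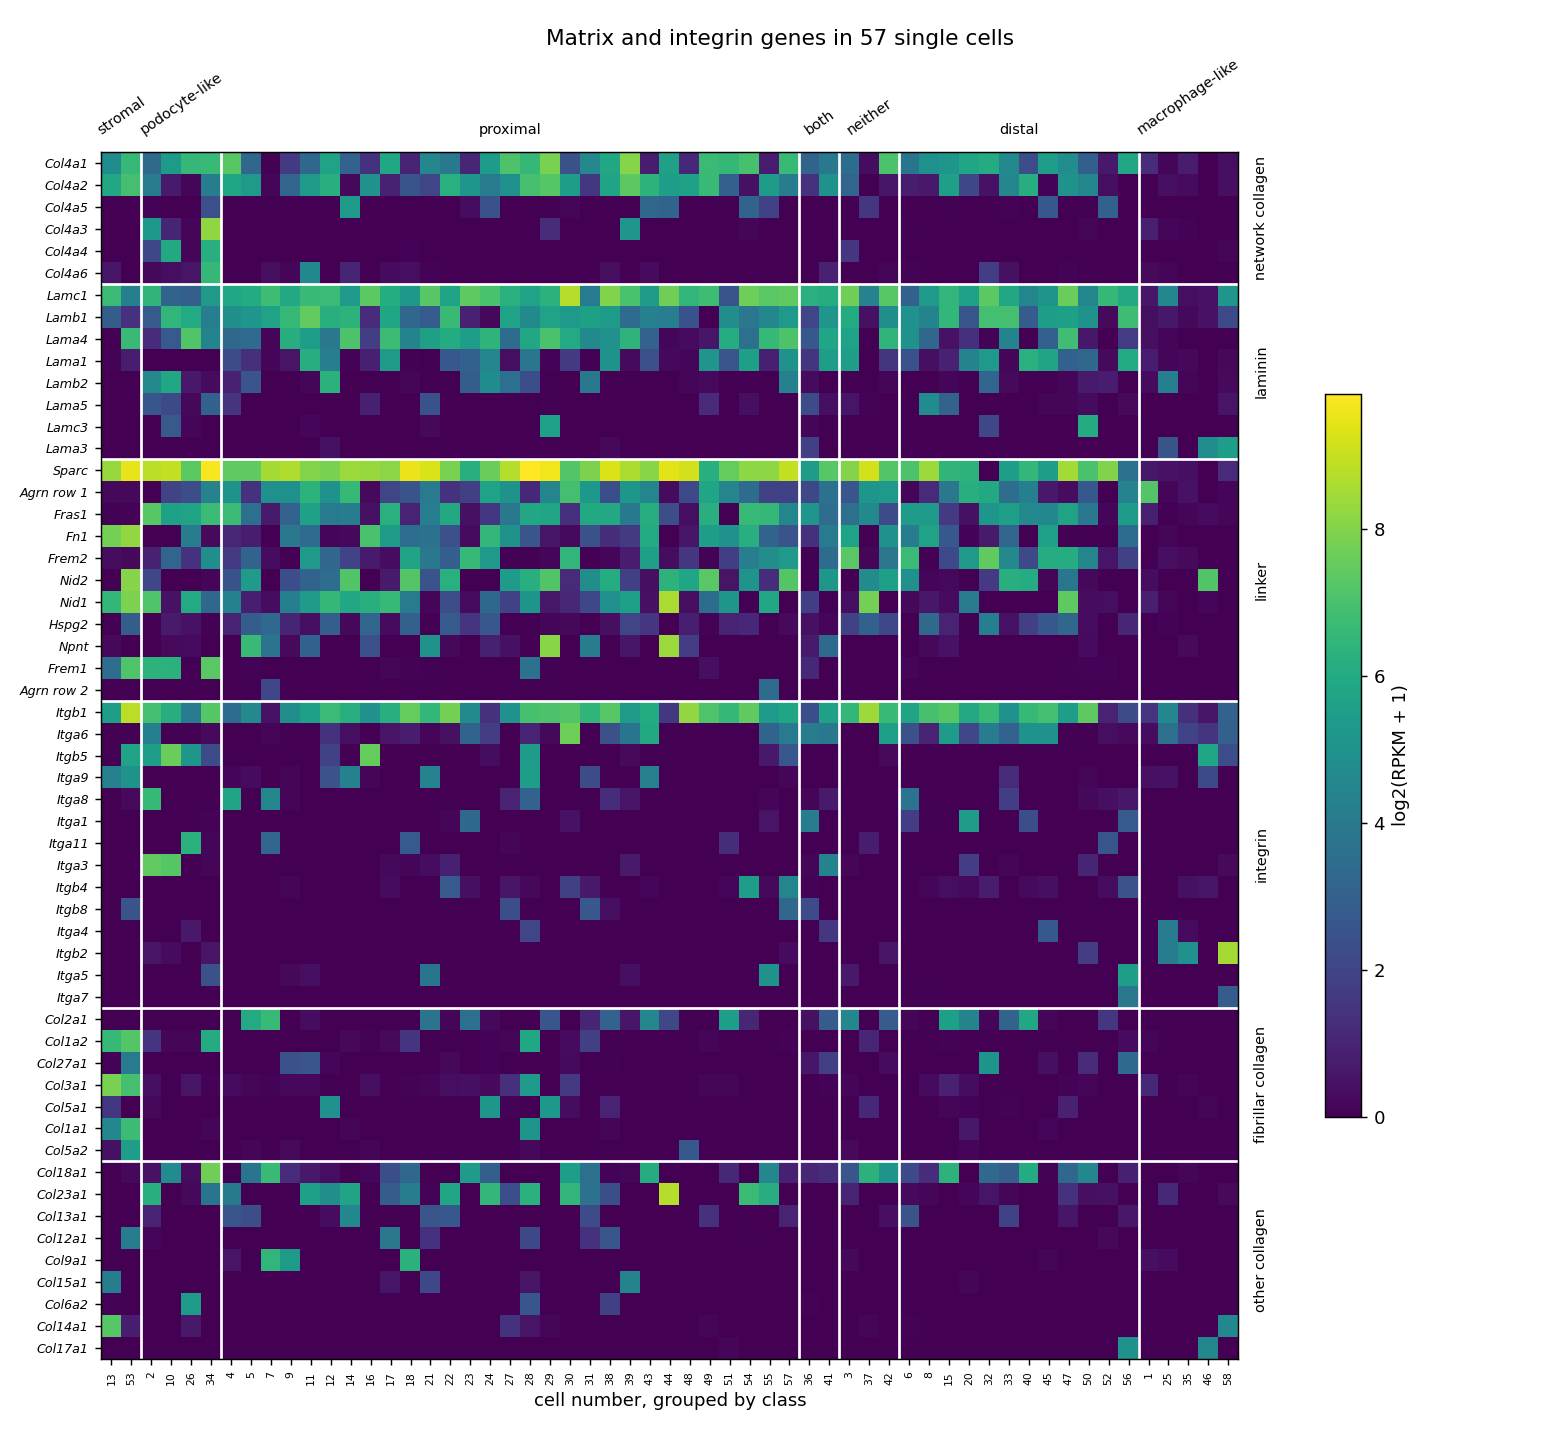
Level of 55 member rows (down) in each of the 57 cells (across), as log2(RPKM + 1), with cells grouped by class and members by family. Sparc, Lamc1 and Itgb1 are present across the nephron classes, the rows of Col3a1, Col1a2 and Fn1 are bright in both stromal cells, and most integrin and fibrillar collagen rows are lit in few cells.

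A few members were close to universal and most were sparse. No member was detected in all 57 cells, and the median member was detected in 7.5 cells, against 16 for all rows of the table. By family the median was 33 cells for the 11 linker rows, 13 for the 9 laminin chains, 7.5 for the 6 collagen IV chains, 6 for the 7 fibrillar collagens, 5 for the 14 integrins and 3 for the 9 other collagens. The number of members detected per cell had a median of 18.5 in stromal, 19.5 in podocyte-like, 17 in proximal, 16 in distal and 6 in macrophage-like cells.

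Among laminins, Lamc1, the gamma chain of most basement membrane laminins, was detected in all 50 nephron cells (exact Clopper-Pearson 95% interval of the share 92.9 to 100%), and Lamb1 in 45. Their levels in nephron cells were 95.9 ± 78.0 RPKM for Lamc1 and 40.9 ± 39.2 RPKM for Lamb1 (SD over 50 cells). Such an interval covers counting error in this pool and no variation between animals. For the alpha chain, which carries the cell-binding end, the nephron cells had Lama4 in 40 cells, Lama1 in 28, Lama5 in 9 and Lama3 in 1. Lama4, Lamb1 and Lamc1 were detected together in 39 of 57 cells, and Lama1, Lamb1 and Lamc1 in 25. The beta chain Lamb2 was found in 11 nephron cells and the gamma chain Lamc3 in 4.

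In the collagen IV family, Col4a1 averaged 48.3 ± 58.8 RPKM and Col4a2 31.0 ± 38.7 RPKM over 50 nephron cells, with detection in 44 and 36. These are partner chains of 1 trimer, and their genes lie side by side. They were detected together in 33 nephron cells, and Spearman's rho of their levels over the 50 cells, which share pool and chip, was 0.13. That is a weak value in sparse data and is given as a description. Col4a5 was detected in 10 nephron cells, Col4a3 in 5, and Col4a4 and Col4a6 in 4 each.

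Of the linkers, Sparc, a collagen-binding glycoprotein secreted with the matrix, had the highest mean of the members per length, 308 ± 230 RPKM over 50 nephron cells, and was detected in 49 of them. Agrn averaged 21.5 ± 27.1 RPKM in its first row, at chromosome 4 from 155539399 to 155560343, with detection in 43 nephron cells. Its second row overlaps the first, from 155553502 to 155571597, and was above RPKM 1 in 2 cells, so how reads were shared between both rows is uncertain. Fras1, which with Frem1 and Frem2 forms the Fraser complex under embryonic epithelia, averaged 34.9 ± 34.8 RPKM and was detected in 42 nephron cells. Frem2 averaged 24.4 ± 39.5 RPKM, and Hspg2 2.51 ± 3.74 RPKM with detection in 21.

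Among integrins 1 beta chain was found in nearly every cell. Itgb1, the partner of most matrix-binding alpha chains, averaged 87.0 ± 73.0 RPKM and was detected in 48 of 50 nephron cells. Of the alpha chains that the symbol rule takes, Itga6, a laminin receptor chain, was found in most nephron cells, in 20. It was ahead of Itga8 and Itga9 in 7 each, Itga1 in 6, and Itga3 and Itga11 in 5 each. Among the other beta chains Itgb5 was detected in 8 nephron cells, and Itgb2, the beta chain of leukocyte integrins, in 1. The symbol rule takes no Itgav, an alpha chain whose name has no number. Itgav was detected in 23 of 57 cells and in 21 of the 50 nephron cells, more than Itga6.

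Among the other collagens, Col18a1, a basement membrane collagen with heparan sulfate chains, was detected in 27 nephron cells and averaged 17.5 ± 36.6 RPKM. The transmembrane collagen Col23a1 averaged 23.6 ± 64.2 RPKM with detection in 19, and the cartilage fibrillar collagen Col2a1 8.83 ± 19.8 RPKM, also with detection in 19. Others appeared as bright single cells. Col9a1 was detected in 3 proximal cells alone, at up to 88.9 RPKM, Lamc3 reached 65.7 RPKM in 1 distal cell, and Col6a2 reached 40.2 RPKM in the podocyte-like cell 26. Col27a1 was found in 6 nephron cells, Col12a1 in 5 and Col15a1 in 2.

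The 10 rows with a mean under 5 RPKM in every class and detection in fewer than 10 cells were Col5a1, Itga4, Lama5, the second row of Agrn, Col13a1, Itga7, Itgb4, Itgb8, Itga5 and Col17a1. They were detected in 2 to 9 cells, and their highest values lay between 8.83 and 43.9 RPKM. Lama5 is nonetheless described with the podocyte-like cells, a choice made after its values were seen.

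Proximal cells had more of several linkers and of 1 laminin chain than distal cells, and less Frem2 and Itga6. Differences are of mean log2(RPKM + 1) and count as called at 1 or more, over rows with a mean RPKM of 1 or more in all cells, which 47 of the 56 members passed. The study itself set such classes against each other in its second table. Of the 47 members, 7 (14.9%) were higher and 3 (6.38%) lower in proximal cells, against 8.86% higher and 8.38% lower of all 11084 rows. The median difference was 0.07 over the members and 0.05 over all rows. Of the 4 measured stroma markers all 4 were detected in proximal cells, summing to 0 to 282 RPKM, against 1 in distal cells, summing to 0 to 2.79 RPKM. Of the 9 macrophage markers 8 were detected in proximal cells, summing to 0 to 68.2 RPKM, against 6 in distal cells, summing to 0 to 180 RPKM. The 4 measured markers of smooth muscle and mesangium summed to a median of 12.5 and at most 998 RPKM in proximal cells, where all 4 were detected, against a median of 0.453 and at most 141 RPKM in distal cells, where 3 were detected and Cspg4 was at 0. The part of these markers in the result was not tested. Without cell 28, the proximal cell with the most stroma markers, 8 members were higher and 4 lower. The share of all rows under that setting is not given here, so these counts are no result about the members. For each of the 10 members called, the ranges of both classes overlapped; ranges failed to overlap for 0.00902% of all rows.

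Sparc had its lowest, median and highest value at 70.1, 285 and 913 RPKM in 29 proximal cells, against 0, 88.3 and 355 RPKM in 12 distal cells. The means were 370 ± 222 and 130 ± 119 RPKM in proximal and distal cells, a difference of 2.20. Most proximal cells lay above the distal median, though the classes overlapped between 70.1 and 355.

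The nidogens, which join laminin to collagen IV, were both higher in proximal cells. Nid1 was detected in 20 of 29 proximal cells, with a median of 10.1 and a highest value of 389 RPKM, against 2 of 12 distal cells, with a median of 0.187 and a highest value of 166 RPKM (difference 2.21). Nid2 was detected in 22 of 29 proximal cells (43.8 ± 54.5 RPKM) and 5 of 12 distal cells (15.5 ± 26.9 RPKM), a difference of 1.75. With pseudocount 10 both nidogen calls were lost (0.90 for Nid1 and 0.86 for Nid2), as were those of Npnt, Col4a2, Frem2 and Itga6. Npnt, a ligand of the integrin made of Itga8 and Itgb1 that acts in kidney induction, was detected in 9 of 29 proximal cells and 0 of 12 distal cells (difference 1.49, or 0.91 and no longer called without the 25% of cells with the fewest detected genes). Its proximal level was set by a few cells, with a median of 0 and a highest value of 327 RPKM in cell 44, against at most 0.398 RPKM in distal cells. Its receptor chain Itga8 was detected in 4 proximal and 2 distal cells, and Npnt and Itga8 were detected together in 1 of the 50 nephron cells, cell 7.

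Lama4 was the laminin alpha chain that was higher in proximal cells, at a median of 43.2 RPKM with detection in 25 of 29, against a median of 1.98 RPKM with detection in 7 of 12 distal cells (difference 2.31). Lama1 fell just short of a call, with a difference of -0.97. It was detected in 16 of 29 proximal cells (11.6 ± 17.8 RPKM) and 8 of 12 distal cells (22.7 ± 27.5 RPKM). Lama3 was detected in no proximal or distal cell and in 1 cell that met both conditions.

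Col4a2 had a median of 39.1 RPKM with detection in 25 of 29 proximal cells, against 2.01 RPKM with detection in 6 of 12 distal cells (difference 1.91). Its partner Col4a1 had medians of 23.7 and 28.5 RPKM in proximal and distal cells and a difference of -0.07, so only 1 chain of the pair was called. Col23a1 was detected in 16 of 29 proximal cells, at up to 422 RPKM, against 1 of 12 distal cells, at 1.62 RPKM (difference 2.55).

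Frem2 and Itga6 were lower in proximal cells. Frem2 was detected in 17 of 29 proximal cells (17.0 ± 26.4 RPKM) and 10 of 12 distal cells (42.1 ± 52.9 RPKM), a difference of -1.47. Itga6 was detected in 9 of 29 proximal cells and 7 of 12 distal cells, with medians of 0.148 and 3.88 RPKM and a difference of -1.13, although its highest value, 200 RPKM, was in proximal cell 30. The means of Itga6 were close, at 11.0 ± 38.3 RPKM in proximal and 11.6 ± 15.2 RPKM in distal cells, and with the log2 ratio of mean RPKM its difference was -0.07, which is no call. With cells placed at RPKM 50 the difference of Frem2 was -0.78 and its call was lost. The most widely detected laminin and integrin chains were not called, with a difference of 0.79 for Lamc1, -0.44 for Lamb1 and 0.07 for Itgb1.

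**Figure D2:**
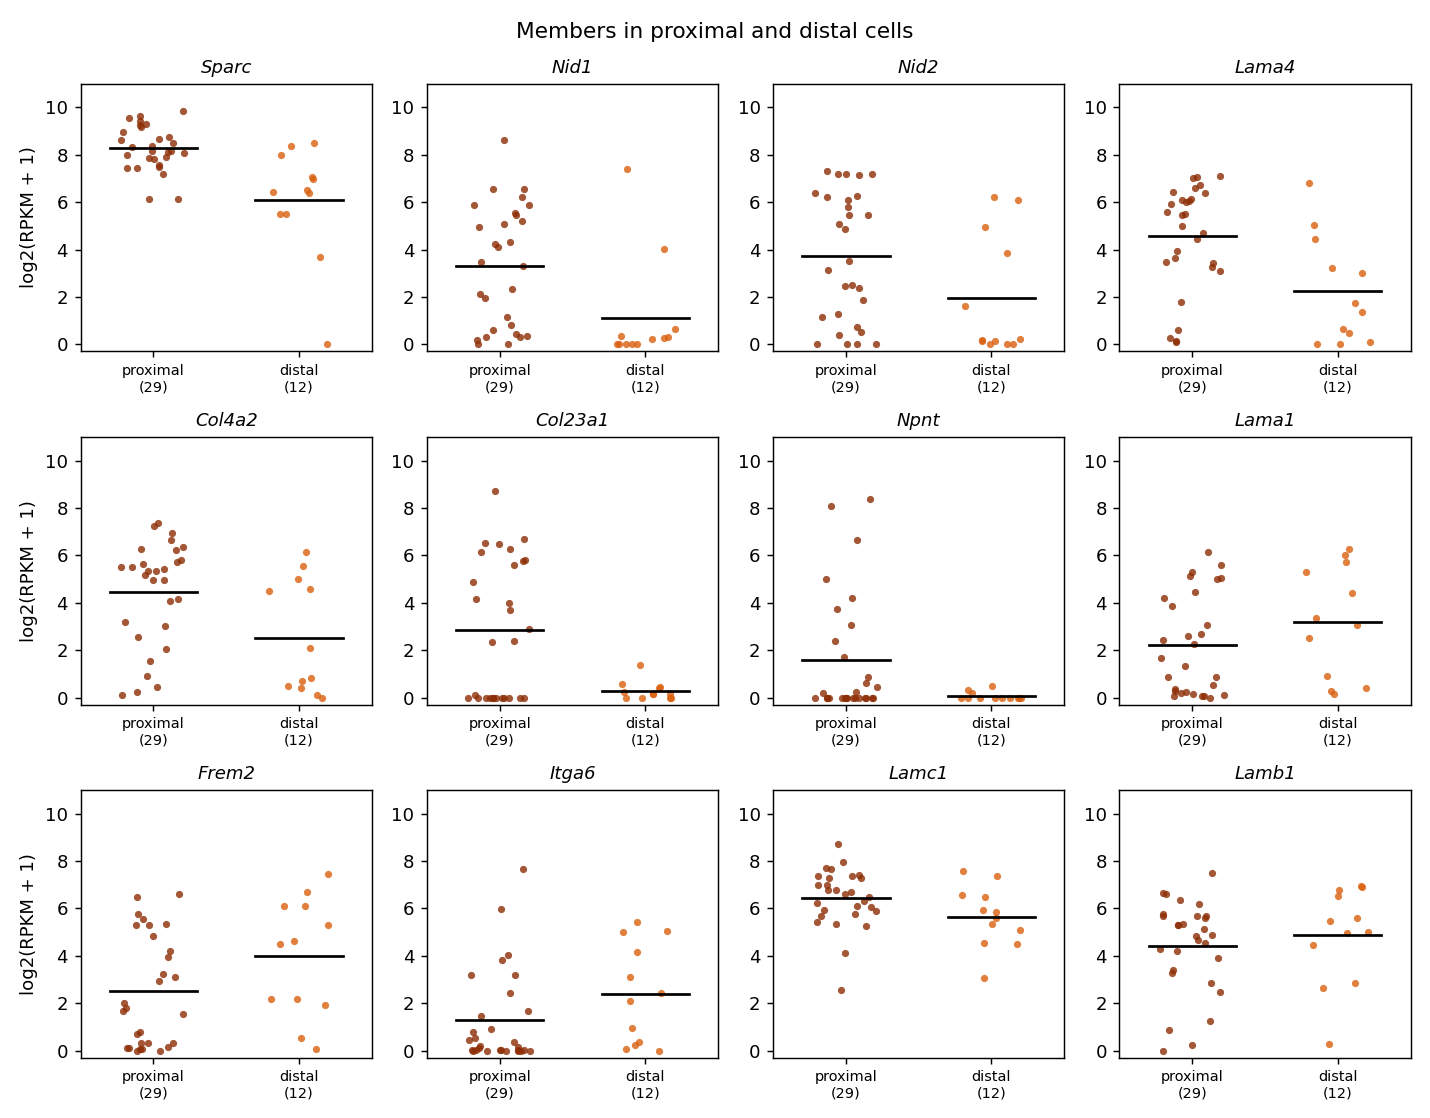
Level of 12 members in each proximal (left) and distal (right) cell as log2(RPKM + 1), with bars at the class means. Sparc, Nid1, Nid2, Lama4, Col4a2, Col23a1 and Npnt have higher proximal means, Frem2 and Itga6 lower ones, and Lamc1 and Lamb1 stay close.

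In the authors' deposited table of their proximal against their distal class, which lists 787 genes or 6.51% of the 12087, 8 members appear. Of all rows 3.61% are listed there as higher in the proximal and 2.9% as higher in the distal class, and of the members 5 and 3. The authors' deposited table gives signed folds, positive for proximal, of 38.0 for Nid1, 11.7 for Col23a1, 7.79 for Lama4, 4.71 for Npnt and 4.12 for Sparc. The authors' deposited table gives -5.68 for Itga1, a collagen receptor chain, and -7.57 for Itga6. Its 28 cells are among those used here, 16 of them proximal and 10 distal by the present classes, so both comparisons rest in part on the same cells. Itga1 is listed there and was not called here: it was detected in 1 of 29 proximal and 4 of 12 distal cells, with means of 0.331 ± 1.61 and 4.56 ± 12.0 RPKM. Col4a2, Nid2 and Frem2 were called here and are not among the 8.

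Podocyte-like cells had more Col4a3, Col4a4, Lama5, Lamb2 and the podocyte integrin chain Itga3 than proximal cells, in uneven shares of the 4 cells. They had no more Col4a5, another chain of the mature glomerular basement membrane. Their comparison with proximal cells shares the 29 proximal cells with the comparison above. Of 47 members, 14 (29.8%) were higher and 8 (17.0%) lower in podocyte-like cells, against 15.8% higher and 21.4% lower of all rows. The median difference was -0.02 over the members and -0.29 over all rows. Of the 9 macrophage markers 8 were detected in podocyte-like cells, summing to 1.04 to 145 RPKM, and 8 in proximal cells, summing to 0 to 68.2 RPKM; their part in the result was not tested. The 3 measured endothelial markers were at 0 in all podocyte-like cells. Values below are in the order of cells 2, 10, 26 and 34.

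Col4a3 was at 37.2, 1.04, 0.0839 and 294 RPKM in the podocyte-like cells, against detection in 2 of 29 proximal cells and a highest value of 34.5 RPKM (difference 3.43). Col4a4 was at 3.41, 61.6, 0.107 and 72.9 RPKM in podocyte-like cells, against at most 0.0666 RPKM in proximal cells (difference 3.61). Both neighbours were thus detected in the same 3 cells, and cell 26 had neither above RPKM 1. Col4a4 was the only member whose ranges did not overlap, by the small margin of cell 26, against 0.0451% of all rows. Col4a5 was detected in cell 34 alone of the 4, so that 1 cell held all 3 chains of the mature network. It was detected in 6 of 29 proximal cells, and its means were 1.07 RPKM in podocyte-like and 2.50 RPKM in proximal cells (difference -0.07). Col4a6 reached 92.9 RPKM in cell 34 and was below 1 RPKM in the other 3 podocyte-like cells.

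The chains that nephron cells had most widely were not all high in podocyte-like cells. Col4a1 was at 9.54, 40.1, 91.6 and 96.8 RPKM in podocyte-like cells, with a proximal median of 23.7 RPKM (difference 1.16). Col4a2 was at 15.4, 0.647, 0.130 and 17.1 RPKM in podocyte-like cells, all below the proximal median of 39.1 RPKM (difference -2.16).

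Podocyte-like cells had more Lama5 and less Lama1 than proximal cells. Lama5 was at 5.17, 3.50, 0.146 and 7.21 RPKM in podocyte-like cells, against detection in 3 of 29 proximal cells and at most 4.52 RPKM (difference 1.78). The highest Lama5 value of all cells, 26.5 RPKM, was in distal cell 8. Lama1 was at 0 in all 4 podocyte-like cells, against detection in 16 of 29 proximal cells and up to 69.5 RPKM (difference -2.22). Lamb2 was at 23.9, 58.1, 0.595 and 0.227 RPKM in podocyte-like cells, against detection in 8 of 29 proximal cells (difference 1.75). The highest Lamb2 value of all cells, 79.8 RPKM, was in proximal cell 12. Lamb1 was detected in all 4 podocyte-like cells. Lama5, Lamb2 and Lamc1, the laminin of the mature glomerular membrane, were detected together in cells 2 and 10 and in no other of the 57 cells. Lamc1 was at 85.3, 7.73, 6.81 and 39.4 RPKM in podocyte-like cells, all below the proximal median of 97.2 RPKM (difference -1.98).

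Among integrins, Itga3, the laminin receptor chain that podocytes need for foot processes, was at 174, 152, 0 and 0.121 RPKM in podocyte-like cells. Proximal cells had at most 0.815 RPKM (difference 3.64), and elsewhere Itga3 was detected in 2 distal cells and in cell 41. Itgb5, a beta chain that pairs with Itgav, was detected in all 4 podocyte-like cells, at 45.1, 197, 33.9 and 3.69 RPKM, against 4 of 29 proximal cells, in which it reached 183 RPKM (difference 4.48). Itga8 (difference 1.09) rested on cell 2, at 95.6 RPKM, and was at 0 in the other 3, and Itga11 (difference 1.36) rested on cell 26, at 77.8 RPKM.

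Frem1 and Fras1 of the Fraser complex were higher in podocyte-like cells. Frem1 was at 81.1, 76.4, 0 and 160 RPKM in podocyte-like cells, against detection in 1 of 29 proximal cells at 11.6 RPKM (difference 4.84, the largest of the members). Fras1 was at 154, 48.8, 52.5 and 102 RPKM in podocyte-like cells, with a median of 16.7 and a highest value of 103 RPKM in proximal cells (difference 2.43). Frem2 was detected in 3 of 4 podocyte-like cells and 17 of 29 proximal cells and was not called. All 3 genes were detected together in cells 10 and 34 alone.

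Of the remaining linkers, Nid2 was at 3.22, 0, 0 and 0.125 RPKM in podocyte-like cells, with a proximal median of 10.3 RPKM (difference -3.15). Nid1 was detected in 3 of the 4 podocyte-like cells and was not called, so only 1 of the 2 nidogens was called. Fn1, fibronectin, was detected in 1 of 4 podocyte-like and 20 of 29 proximal cells (difference -1.71). Agrn had means of 6.66 ± 8.85 RPKM in podocyte-like and 25.9 ± 30.6 RPKM in proximal cells (difference -1.52), and Npnt was below 1 RPKM in all 4 podocyte-like cells (difference -1.44). Col2a1 was at 0 in all 4 podocyte-like cells and detected in 11 of 29 proximal cells (difference -1.42). Sparc was at 445, 485, 164 and 852 RPKM in podocyte-like cells and was not called against proximal cells. Col18a1 (difference 1.62) and Col1a2 (difference 1.61) were highest in cell 34, at 207 and 65.4 RPKM.

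Several of these calls rested on a single podocyte-like cell. Without cell 2 the difference was -0.56 for Itga8 and -0.80 for Agrn, without cell 10 it was 0.75 for Lamb2, and without cell 26 it was -0.20 for Itga11. Without cell 34 it was 0.26 for Col1a2, 0.16 for Col18a1 and 0.11 for Col4a6. Col4a1 was at 0.81 without cell 26 and at 0.78 without cell 34. The calls of Frem1, Fras1, Itgb5, Itga3, Col4a3, Col4a4, Lama5, Lama1, Nid2, Col4a2, Lamc1, Fn1, Npnt and Col2a1 were kept whichever of the 4 cells was left out. Many of them depended on other choices. Where 2 podocyte markers sufficed, which adds the cells near the limit, Lama5 (0.35), Lama1 (-0.86), Lamc1 (-0.42), Npnt (-0.89), Col4a2 (0.0096) and Nid2 (0.75) were no longer called. Without the 25% of cells with the fewest detected genes, which leaves 2 podocyte-like cells, Col4a3 (0.34), Lama5 (0.94), Fn1 (-0.87) and Npnt (-0.73) were no longer called. Frem1, Fras1, Itgb5, Itga3, Col4a4 and Col2a1 kept their calls under both. With pseudocount 10, 13 of the 22 calls were lost. These were Col2a1, Fn1, Itga8, Lama5, Npnt, Agrn, Col1a2, Col4a1, Itga11, Lamb2, Col18a1, Lama1 and Col4a6.

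**Figure D3:**
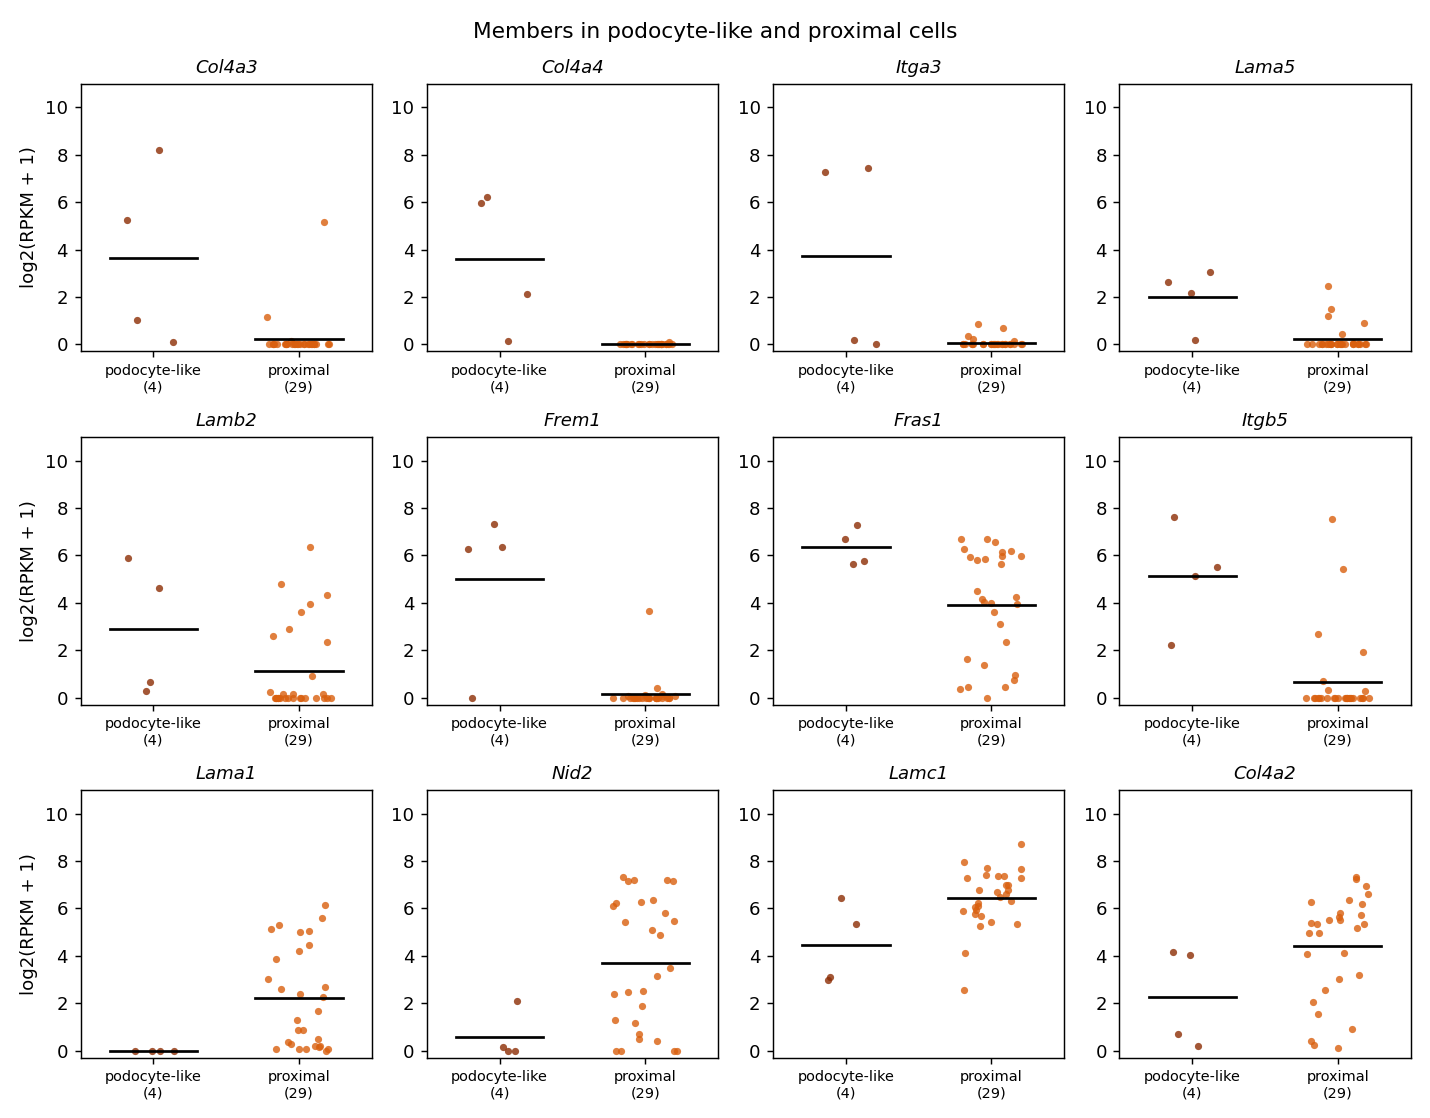
Level of 12 members in each podocyte-like (left) and proximal (right) cell as log2(RPKM + 1), with bars at the class means. Frem1, Itga3, Col4a3 and Col4a4 are high in 2 or 3 of the 4 podocyte-like cells and near 0 in nearly all proximal cells, and Lama1 is at 0 in the 4 podocyte-like cells.

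The stromal cells had interstitial collagens and fibronectin that nephron cells lacked or had at lower levels, and lacked several epithelial linkers. The nephron cells of this comparison include all cells of both comparisons above. Of 47 members, 15 (31.9%) were higher and 10 (21.3%) lower in stromal cells, against 17.7% higher and 31.5% lower of all rows. The median difference was -0.37 over the members and -0.51 over all rows. Values below are in the order of cells 13 and 53.

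Col3a1, at chromosome 1 from 45368383 to 45406551 on mm9, was at 231 and 123 RPKM in stromal cells, against a median of 0.0644 and a highest value of 39.3 RPKM in 50 nephron cells (difference 7.12). Col1a2 was at 95.2 and 147 RPKM in stromal cells, against at most 65.4 RPKM in nephron cells (difference 6.50). Col1a1 was at 22.8 and 106 RPKM in stromal cells, against at most 33.2 RPKM in nephron cells (difference 5.53). In 1 nephron cell, cell 28, the 3 fibrillar chains were all present, at 33.2 RPKM for Col1a1, 57.7 RPKM for Col1a2 and 39.3 RPKM for Col3a1. That proximal cell also had Dcn at 173 RPKM, Acta2 at 397 RPKM and Meis1 at 107 RPKM beside Wt1 at 262 RPKM and Pax8 at 758 RPKM, and no doublet caller was run. The part of these markers in the result was not tested. Without cell 28, which is 1 of the 50 nephron cells, the counts were 15 higher and 10 lower. The share of all rows under that setting is not given here.

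Fn1 was at 220 and 300 RPKM in stromal cells, against a median of 4.59 and a highest value of 130 RPKM in nephron cells (difference 5.47). Fn1, Col3a1 and Col1a2 were the 3 members whose ranges did not overlap, against 0.641% of all rows. Nid1 was at 90.7 and 235 RPKM in stromal cells, with a nephron median of 2.71 RPKM and a nephron highest value of 389 RPKM (difference 4.48). Itga9, an alpha chain that pairs with Itgb1, was at 18.5 and 31.8 RPKM in stromal cells, against detection in 7 of 50 nephron cells (difference 4.15). Frem1 was at 10.3 and 138 RPKM in stromal cells, so the member with the largest podocyte-like difference was present here too (difference 4.79).

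The 2 stromal cells differed from each other in several members. Col14a1, a collagen that decorates fibrils, was at 153 RPKM in cell 13 and 0.671 RPKM in cell 53. Nid2 was at 0 and 261 RPKM, Lama4 at 0 and 96.7 RPKM, Itgb1 at 45.1 and 446 RPKM and Col5a2 at 0.350 and 44.1 RPKM in cells 13 and 53. Pdgfrb, a listed stroma marker that is also a mural and mesangial receptor, was at 0.115 RPKM in cell 13 and 370 RPKM in cell 53. Collagen IV was present in both, with Col4a1 at 26.6 and 94.2 RPKM and Col4a2 at 56.3 and 123 RPKM, and Sparc was at 321 and 714 RPKM. The differences from nephron cells were 1.33 for Col4a1, 2.83 for Col4a2 and 1.21 for Sparc.

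Calls that rested on 1 stromal cell were those of Col14a1, at 0.68 without cell 13, and of Sparc, Col4a1, Itgb1, Nid2, Itgb5 and Col27a1. Without cell 53 these were at 0.64, 0.43, -0.18, -2.97, -0.79 and -0.29 in the same order. With both cells the last 4 differed by 1.46 for Itgb1, 1.04 for Nid2, 2.04 for Itgb5 and 1.67 for Col27a1, and Col14a1 differed by 3.94. Itgb5 was at 0 and 49.5 RPKM and Col27a1 at 0.0555 and 15.1 RPKM in cells 13 and 53.

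Fras1 was at 0.0394 and 0.0694 RPKM in stromal cells, against a median of 23.7 RPKM in nephron cells (difference -4.04). Agrn was at 0.164 and 0.145 RPKM in stromal cells, against a nephron median of 11.3 RPKM (difference -3.15), and Frem2 and Lamb1 were lower, with differences of -2.64 and -2.35. Lama1, Col18a1, Col23a1, Col2a1 and Itga6 were all below 1 RPKM in both stromal cells and lower, with differences between -1.46 and -2.08. Their nephron medians were low too, at 2.02, 1.28, 0.136, 0.110 and 0.318 RPKM in that order. With pseudocount 10 these calls were all lost, as were those of Col4a1, Itgb5 and Col27a1. Of the 9 macrophage markers 7 were at 0 in both stromal cells, but Lyz2 was at 219 and 304 RPKM. Of the 9 podocyte markers 3 were detected in stromal cells, with a summed level of 22.8 and 212 RPKM and Nphs1, Podxl and Plce1 at 0, and Wt1 was at 35.3 RPKM in cell 13. The part of these markers in the result was not tested.

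**Figure D4:**
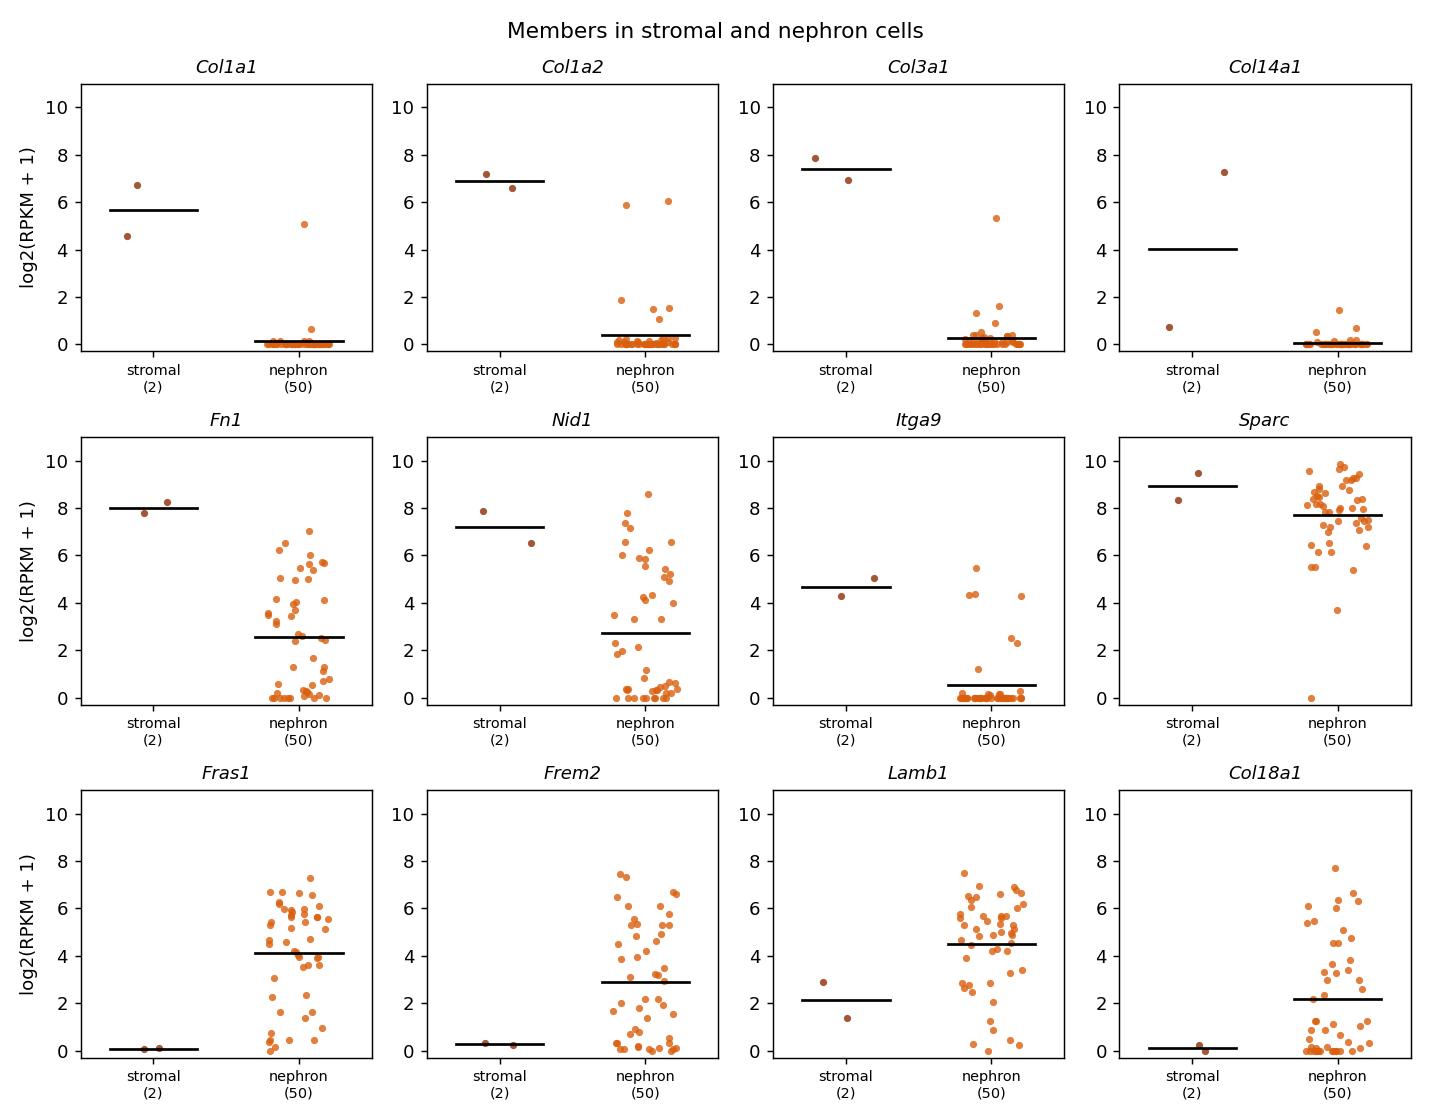
Level of 12 members in each stromal (left) and nephron (right) cell as log2(RPKM + 1), with bars at the class means. Both stromal cells lie above every nephron cell for Col3a1, Col1a2 and Fn1, and Fras1, Frem2 and Col18a1 are near 0 in both stromal cells.

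The 5 macrophage-like cells had few members. Sparc was at 1.31 RPKM or less in all 5, and Itgb2 was at 0, 16.5, 30.8, 0 and 365 RPKM in cells 1, 25, 35, 46 and 58, against at most 2.38 RPKM in nephron cells. Lama3 was at 0, 4.91, 0, 27.6 and 43.8 RPKM in the same order. Single values stood out, with Agrn at 146 RPKM in cell 1 and Nid2 at 141 RPKM in cell 46.

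Genes that process or degrade the matrix, or that pass its signal on, were counted from 4 lists. The shares of all rows called were 8.86% higher and 8.38% lower in proximal than in distal cells, 15.8% and 21.4% in podocyte-like than in proximal cells, and 17.7% and 31.5% in stromal than in nephron cells, and a list share near these is no result about the list. Of 19 measured genes for the folding, crosslinking and trimming of matrix, 3 (15.8%) were higher and 0 lower in proximal than in distal cells, 3 (15.8%) higher and 2 (10.5%) lower in podocyte-like than in proximal cells, and 9 (47.4%) higher and 6 (31.6%) lower in stromal than in nephron cells. Loxl2, a lysyl oxidase, was detected in all 57 cells, Ppib in 56, P4hb in 52 and the collagen chaperone Serpinh1 in 40, with P4ha3 the rarest, in 3. Serpinh1 was higher in stromal cells by 2.18, as were Pcolce, an enhancer of procollagen processing, by 8.28 and Fkbp10 by 7.02, the last 2 chosen after their values were seen.

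Of 26 tested genes for other glycoproteins and proteoglycans, 3 (11.5%) were higher and 2 (7.69%) lower in proximal than in distal cells, near the shares of all rows. The counts were 6 (23.1%) higher and 7 (26.9%) lower in podocyte-like than in proximal cells, and 12 (46.2%) higher and 7 (26.9%) lower in stromal than in nephron cells. The most widely detected were 3 heparan sulfate carriers, Sdc4 in 56 cells, Gpc3 in 55 and Gpc1 in 49, and the proteoglycan Vcan in 46. Others that carry heparan sulfate ranged widely, with Gpc6 in 42 cells, Sdc2 in 38, Sdc1 in 23, Gpc4 in 12 and Sdc3 in 9. Emilin1, Ntn4 and Thbs2 were the rarest of the list, in 2 cells each. Gpc1 was higher in podocyte-like than in proximal cells by 2.81, and Gpc3 was lower, with a difference of -1.60.

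Of 16 tested proteases and inhibitors, 3 (18.8%) were higher and 2 (12.5%) lower in proximal than in distal cells, 6 (37.5%) higher and 5 (31.2%) lower in podocyte-like than in proximal cells, and 8 (50.0%) higher and 5 (31.2%) lower in stromal than in nephron cells. Ctsl was detected in 53 cells, Ctsb and Adam10 in 50 each and Mmp2, a gelatinase, in 34, with Plau the rarest, in 4. Mmp2 was higher in proximal than in distal cells by 2.12.

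Of 24 tested integrin adaptors and other matrix receptors, 2 (8.33%) were higher and 5 (20.8%) lower in proximal than in distal cells, 8 (33.3%) higher and 4 (16.7%) lower in podocyte-like than in proximal cells, and 3 (12.5%) higher and 7 (29.2%) lower in stromal than in nephron cells. Ilk, the integrin-linked kinase, was detected in 51 cells, the dystroglycan gene Dag1 in 39, and Zyx and the kindlin Fermt2 in 38 each, with Ddr2 the rarest, in 2. Fermt2 was higher in podocyte-like than in proximal cells by 3.63. In mean log2 it was lower in proximal than in distal cells, with a difference of -1.13. Its mean RPKM was close in both, at 54.4 in proximal and 53.2 in distal cells. Zyx was lower in podocyte-like than in proximal cells, with a difference of -3.60.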

How the data were processed

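Cells were loaded on the Fluidigm C1, capture sites were viewed by microscope, and the RNA was amplified with the SMARTer kit and made into Nextera XT libraries, per the labels' protocols. These kits keep no strand and add no molecular identifiers. The authors deposited RPKM values for 12087 rows in 57 cells, and a smaller table of RPKM values for 787 genes in 28 cells with a signed fold between classes, read here as a score of the authors. TopHat 1.4.1, DESeq and mm9 are named, without a role, per the submitters' processing notes. No value was changed before use.

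The members and lists were chosen with earlier results of these data known. Members were found by symbol with a full match. Depth was estimated from the step of low RPKM values over 1021 single-transcript genes. Each difference is one of mean log2(RPKM + 1), with pseudocount 1, over rows with mean RPKM of 1 or more, called at 1 or more in size, and it understates changes of low genes. The calculation was checked on simulated data with no missed transcripts and with changes only in genes of high level. That check does not cover sparse members. Members with a mean RPKM of 5 or more in a class or detection in 10 or more cells, 46 rows, are given with values. Counts cover all rows, and a few items they include are not reported here. From each list the 4 genes detected in most cells and the rarest are named. Irx1 and Irx2, listed with the distal genes, were not used here. All cells come from 1 pool, so no p-value was computed, and intervals cover counting alone. Alternatives changed the pseudocount, filter, threshold, summary, class limits and cells. Python 3.11.15 with pandas 2.3.3, numpy 2.4.6, scipy 1.17.1 and matplotlib 3.10.9 was used.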

Additional observations from a re-analysis of the deposited data

How the results depend on the processing

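In proximal against distal cells, 7 members were higher and 3 lower; the counts were 11 and 7 with pseudocount 0.1 (of all rows 19.2% higher and 16.4% lower), 3 and 1 with pseudocount 10 (1.54% and 1.74%), 4 and 1 with a difference of 2 (1.24% and 1.37%), and 17 and 6 with the log2 ratio of mean RPKM (26.3% and 16.3%). In podocyte-like against proximal cells, 14 were higher and 8 lower; the counts were 6 and 3 with pseudocount 10 (of all rows 6.09% and 6.92%), 6 and 3 with a difference of 2 (4.89% and 6.60%), and 8 and 3 where 2 podocyte markers sufficed (9.58% and 7.36%). A mean RPKM of 5 or more left 8 higher (17.4% of all rows), and the log2 ratio of mean RPKM gave 17 lower (45.9%). In stromal against nephron cells, 10 were lower; the count was 18 with pseudocount 0.1 (of all rows 46.2%), 4 with pseudocount 10 (10.8%), 5 with a difference of 2 (12.2%) and 26 with the ratio of means (65.7%). The share of all rows moved as well, least with the mean RPKM of 5 or more, so a moved count is not by itself a result about the members. The median number of cells with a member was 7.5, against 17.5 for any value above 0 and 4 at RPKM 5. Leaving out each podocyte-like cell in turn gave 11 to 14 higher and 8 to 9 lower members, and leaving out each stromal cell gave 10 to 16 higher and 12 to 13 lower. The shares of all rows under these settings are not given here, so these counts are no result about the members.

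Some members turned round, and the cause was not tested. Without the 25% of cells with the fewest detected genes, podocyte-like minus proximal was -0.51 for Itga8 and -0.28 for Col1a2. With 2 markers it was 0.0096 for Col4a2, -0.42 for Lamb2, -0.82 for Col18a1 and 0.75 for Nid2. Leaving out each podocyte-like cell in turn gave -0.56 (without cell 2) to 1.63 for Itga8 and -0.20 (without cell 26) to 1.90 for Itga11. Without stromal cell 53 and without cell 13, stromal minus nephron was -0.29 and 3.63 for Col27a1, -0.18 and 3.10 for Itgb1, -2.97 and 5.06 for Nid2, and -0.79 and 4.87 for Itgb5. Over single members 658 alternative values stayed within the SD over cells of the main value, 72 moved further and 12 changed sign. A value within that SD can still lose its call. The values include comparisons of mean RPKM between both deposited tables, which carry no call. The stromal comparison gave no value without those 25% of cells, since both stromal cells are in it. Without cell 28, an alternative chosen after seeing the data, proximal against distal cells gave 8 higher and 4 lower, with the share of all rows not given. No paired analysis was possible because all cells form 1 group from 1 pool. Depth and amplification of single cells limit detection, so an RPKM of 0 does not show absence.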
